A study of Rattus norvegicus with 35 samples.

Results

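The comparison set 5 hippocampal RNA libraries from ovariectomized rats given anastrozole against 5 from ovariectomized rats given estradiol, 10 of the 35 libraries of the series, chosen by their treatment labels. Anastrozole is a non-steroidal inhibitor of aromatase, the enzyme that makes estrogens from androgens, and estradiol is the main estrogen of the cycling female. All animals were female Sprague Dawley rats operated on at 6 months of age, and dosing began 2 weeks later. Both groups had their ovaries removed, received 1 intraperitoneal injection a day, and were sampled at 7 days, with 0.16 mg/kg of estradiol or 4.03 mg/kg of anastrozole. Levels in 5 ovariectomized vehicle animals and 5 sham-operated animals, which kept their ovaries and got neither agent, are given beside them. The doses are those the labels state. The labels give exemestane, the other aromatase inhibitor of the series, 0.16 mg/kg, and whether the doses of both inhibitors were exchanged could not be checked.

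Estrogens reach hippocampal cells from the ovary and, in small amounts, from local aromatase, and act through the nuclear receptors Esr1 and Esr2 and the membrane receptor Gper1. The nuclear receptors of steroids fold and mature on Hsp90 with helper proteins such as Fkbp4 and Stip1. An ovariectomized animal on anastrozole therefore lacks ovarian estrogen and has a drug against aromatase elsewhere, whereas the estradiol animal has the hormone replaced, so the contrast joins 2 differences in treatment that it cannot separate.

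Library totals were 5.58 to 8.37 M counts in estradiol and 7.03 to 12.09 M in anastrozole (M for mega). Hippocampal markers were present in both groups: Slc17a7, the vesicular glutamate transporter of excitatory neurons, averaged 1347 ± 62.8 CPM (counts scaled to a library of 1 M; SD, n = 5) in estradiol and 1293 ± 115 in anastrozole, and Prox1, a dentate granule cell factor, 116.9 ± 7.1 and 130 ± 15.3. Libraries also differed in 2 ways that no label gives. Rn7sl1, the RNA component of the particle that targets nascent proteins to the endoplasmic reticulum, took 4.99%, 5.42%, 5.10%, 5.69% and 5.88% of counts in estradiol and 6.49%, 5.60%, 3.82%, 2.90% and 5.06% in anastrozole. At a cut of 4.15%, anastrozole replicates 3 and 4 were low and the other 8 libraries high, while 15 of all 35 libraries were low. Whether this share differs in the tissue or through library preparation was not tested. Ttr, a choroid plexus transcript, stood at 2095 CPM in estradiol replicate 2 and at 0.88 to 2.33 CPM in the other 4. It stood at 1896, 2314 and 832 CPM in anastrozole replicates 2, 4 and 5 and at 4.03 and 10.8 CPM in replicates 1 and 3. The summed level of 19 choroid plexus genes ran from 87.2 to 3476 CPM in estradiol and from 107 to 4155 CPM in anastrozole. In whole tissue, fewer cells of a type and less RNA per cell cannot be told apart. Because no estradiol library was low in Rn7sl1, folds are given from a fit on groups alone and from a fit with the Rn7sl1 class as a covariate. Low libraries numbered 5 of 5 in the raloxifene group of the series, 4 in exemestane and 3 in tamoxifen. Anastrozole held 2, vehicle 1, and sham and estradiol 0. The class term is therefore estimated within the groups that hold both classes and taken as equal in all of them. Class and treatment are thus not fully separated in that fit.

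**Figure D1:**
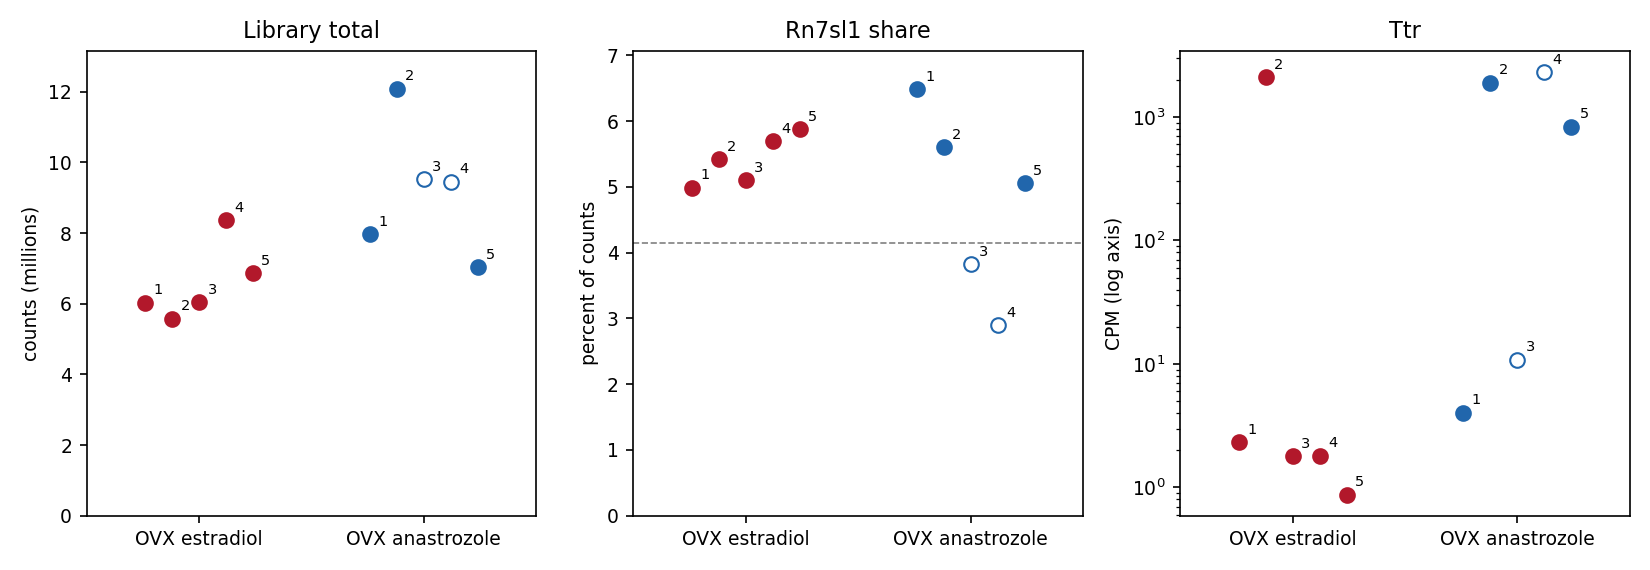
Library total (M counts), Rn7sl1 share (percent of counts; dashed line at the 4.15% cut) and Ttr (CPM, log axis) in each of the 5 estradiol and 5 anastrozole libraries; the digit beside each point is the replicate and open points are low in Rn7sl1. Anastrozole replicates 3 and 4 lie below the cut, and Ttr is above 100 CPM in 1 estradiol and 3 anastrozole libraries.

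Of 14411 genes tested, 1 passed an adjusted p of 0.05 (edgeR quasi-likelihood, Benjamini-Hochberg) with groups alone, which is 0.00694% of them, and 1 passed with the class, again 0.00694%. Both fits called the same entry, Mt-ENSRNOG00000030478, which the deposited table lists with a mitochondrial prefix and an Ensembl identifier only. The reference tables used here do not annotate it, so no gene name or function is given. At an unadjusted p under 0.05, 636 genes were higher in anastrozole (4.41%) and 551 lower (3.82%) with groups alone. With the class, 311 were higher (2.16%) and 388 lower (2.69%). The next smallest adjusted p was 0.302 with groups alone and 0.642 with the class, so the genes described after the called entry are given as values and not as calls.

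The called entry fell. It measured 1106, 1067, 1106, 1088 and 960 CPM in the 5 estradiol libraries and 659, 580, 552, 493 and 663 CPM in the 5 anastrozole libraries. Every anastrozole library lay below every estradiol library, and anastrozole replicates 3 and 4, the low Rn7sl1 libraries, held the lowest values. The log2 fold change was −0.85 ± 0.12 (SE; adjusted p = 0.000514, edgeR) with groups alone and −0.75 ± 0.11 (adjusted p = 0.00345) with the class. In the vehicle group the entry measured 943, 524, 700, 538 and 627 CPM, and in sham 974, 913, 1043, 832 and 808 CPM. The anastrozole values thus lay within or below the vehicle range and under every sham value, while 4 of the 5 estradiol values exceeded every sham value. Set against vehicle, which shares the estradiol libraries with the main contrast, estradiol differed by 0.68 on the log2 scale (adjusted p = 0.0377, edgeR) and anastrozole by −0.18 (adjusted p = 1). With the class these were 0.63 (adjusted p = 0.0109, edgeR) and −0.12 (adjusted p = 0.857). Single libraries were left out in turn for anastrozole and estradiol only, not for the other groups of the series. The call stood each time: adjusted p (edgeR) was 0.000737 to 0.00676 with groups alone and 0.00413 to 0.0449 with the class. It was lost when the fit held the 15 anastrozole, estradiol and vehicle libraries (adjusted p = 0.065, and 0.798 with the class), when only high Rn7sl1 libraries were used (fold −0.75 ± 0.13, adjusted p = 0.43), under the authors' per-gene factors with groups alone (adjusted p = 0.11), and when only libraries with Ttr under 100 CPM were used (adjusted p = 0.641, and 0.638 with the class). The fold stayed between −0.96 and −0.72 in every one of these fits. The other mitochondrial entry listed by identifier, Mt-ENSRNOG00000043866, averaged 42880 CPM in estradiol and 43380 CPM in anastrozole, with overlapping groups.

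**Figure D2:**
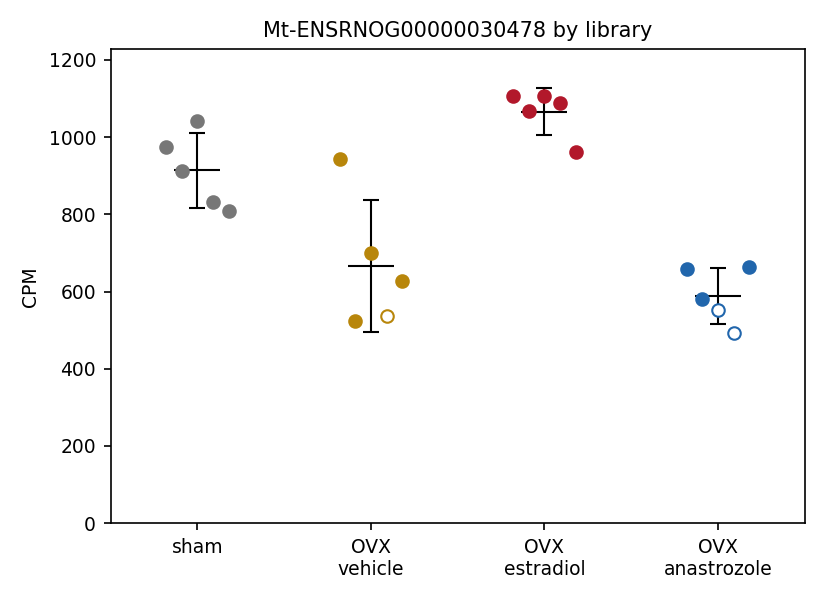
CPM of Mt-ENSRNOG00000030478 in each library of 4 groups of 5; horizontal bars with whiskers are the mean ± SD and open points are libraries low in Rn7sl1. All 5 anastrozole points (493 to 663) lie below all 5 estradiol points (960 to 1106), and vehicle spans 524 to 943.

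None of the 13 genes for proteins encoded in the mitochondrial genome passed the adjusted test, and with groups alone 0 of 13 had an unadjusted p under 0.05, with a median log2 fold change of 0.12 beside 0.005 over all genes. With the class the median was −0.03, and Mt-nd4l, a subunit of respiratory complex I, was the 1 member with an unadjusted p under 0.05. Mt-nd4l averaged 566 ± 48.8 CPM in estradiol and 509 ± 46.4 in anastrozole (fold −0.21 ± 0.08 with the class, adjusted p = 0.924, edgeR). Summed levels of the 13 ranged from 44870 to 51820 CPM in estradiol and from 42930 to 61780 in anastrozole. The highest anastrozole sums, 61780 and 59360 CPM, were those of replicates 3 and 4, which were low in Rn7sl1. The other anastrozole libraries spanned 42930 to 51100 CPM. Of 75 nuclear genes of the respiratory chain, 1 was higher and 5 lower at an unadjusted p under 0.05 with groups alone, and 1 and 2 with the class. The shares over all genes, beside which this and the later list counts are to be read, were 4.41% higher and 3.82% lower with groups alone, and 2.16% and 2.69% with the class.

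Fkbp4, Vgf, Hspa5 and Msmo1 are printed here with the promoter that RefSeq gives for each in build GRCr8, because each stands for a gene group described next: the steroid receptor chaperones, neuropeptides, endoplasmic reticulum chaperones and cholesterol synthesis. Each run holds 250 bases before the start site and 50 after it, 5′ to 3′ on the gene's strand. Capitals mark matches, on either strand, to GGTCA (the half-site of the estrogen response element), to TGACGTCA (the cAMP response element) or to CCAAT and CCACG with 9 bases between them (the endoplasmic reticulum stress element).
Fkbp4, chr4:163397869-163398168, minus strand: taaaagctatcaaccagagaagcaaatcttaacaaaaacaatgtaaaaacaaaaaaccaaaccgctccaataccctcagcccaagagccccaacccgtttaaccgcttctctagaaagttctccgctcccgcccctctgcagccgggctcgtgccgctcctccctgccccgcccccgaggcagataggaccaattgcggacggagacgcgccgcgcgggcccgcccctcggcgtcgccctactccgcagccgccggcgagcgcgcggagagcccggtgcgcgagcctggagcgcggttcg
Vgf, chr12:25276971-25277270, minus strand: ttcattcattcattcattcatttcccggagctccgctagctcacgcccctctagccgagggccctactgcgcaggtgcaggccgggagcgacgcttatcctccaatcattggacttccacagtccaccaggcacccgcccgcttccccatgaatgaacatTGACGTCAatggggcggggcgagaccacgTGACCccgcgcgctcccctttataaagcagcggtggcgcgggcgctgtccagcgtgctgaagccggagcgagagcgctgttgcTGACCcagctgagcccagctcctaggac
Hspa5, chr3:38452766-38453065, plus strand: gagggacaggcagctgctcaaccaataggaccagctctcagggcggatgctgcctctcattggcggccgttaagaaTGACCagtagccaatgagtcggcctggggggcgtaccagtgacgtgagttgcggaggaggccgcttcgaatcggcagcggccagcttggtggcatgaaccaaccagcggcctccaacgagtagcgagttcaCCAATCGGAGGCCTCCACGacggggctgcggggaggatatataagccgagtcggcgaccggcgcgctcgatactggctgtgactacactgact
Msmo1, chr16:29746863-29747162, plus strand: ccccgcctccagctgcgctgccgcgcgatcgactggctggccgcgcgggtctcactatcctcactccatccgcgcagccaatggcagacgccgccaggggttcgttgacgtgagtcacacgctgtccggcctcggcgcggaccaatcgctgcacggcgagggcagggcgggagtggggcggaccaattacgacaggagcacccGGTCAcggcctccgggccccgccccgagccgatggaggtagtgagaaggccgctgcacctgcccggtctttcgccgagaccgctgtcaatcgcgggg
The Fkbp4 window held no match. The Vgf window held the cAMP response element, starting 90 bases before the start site, and 2 half-sites, Hspa5 held the stress element starting 43 bases before the start site and 1 half-site, and Msmo1 held 1 half-site. Among 27457 rat promoters of this length, 40.2% held a half-site, 1.91% the cAMP response element and 0.0765% the stress element. The half-site pair GGTCA and TGACC with 3 bases between them was in 0.0255% of promoters and in none of the 41 that were found for the 51 genes whose folds were followed. Of these 41, 15 held a half-site, 1 the cAMP response element (Vgf) and 3 the stress element (Zfp57, Hspa5 and Xbp1).

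The estrogen receptors were near the floor of detection: Esr1 averaged 1.59 ± 0.82 CPM in estradiol and 2.38 ± 0.53 in anastrozole, Esr2 1.20 ± 0.60 and 1.23 ± 0.39, and Gper1 1.08 ± 0.60 and 0.90 ± 0.24. Cyp19a1, the aromatase that anastrozole inhibits, averaged 0.83 ± 0.43 CPM in estradiol and 1.21 ± 0.59 in anastrozole (fold 0.58 ± 0.43 with groups alone, adjusted p = 0.66, edgeR, and 0.54 ± 0.47 with the class). Pgr, the progesterone receptor and a textbook estrogen target, averaged 21.8 ± 1.15 and 21.6 ± 2.86 CPM (fold −0.02 ± 0.10, then −0.01 ± 0.10), against 22.02 ± 3.01 in vehicle. Of 30 tested estrogen-responsive genes, 3 were higher (Igfbp5, Tgfa and Mybl1) and 1 lower (Xbp1) at an unadjusted p under 0.05 with groups alone, with a median fold of −0.01 and 13 positive folds. With the class 2 were higher (Igfbp5 and Ccnd1) and 1 lower (Xbp1), and the median changed sign to 0.03, with 18 positive folds.

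Among the Hsp90 chaperones, Fkbp4 was the member whose groups did not overlap. Over all genes, every anastrozole library lay below every estradiol library for 0.833% and above for 0.576%. Later mentions of genes without overlap are to be read beside these shares. Genes named for a small p were chosen from the same libraries, so their lack of overlap is no separate support. Fkbp4, a cochaperone that carries steroid receptors, measured 122.9, 132.7, 118.8, 131.8 and 129.2 CPM in estradiol and 114.7, 115.2, 96.4, 106.8 and 107.7 CPM in anastrozole. The lowest estradiol value was above the highest anastrozole value, and the 2 low Rn7sl1 libraries held the lowest values. Its fold was −0.23 ± 0.06 with groups alone (adjusted p = 0.495, edgeR) and −0.19 ± 0.05 with the class (adjusted p = 0.688). Vehicle averaged 103.9 ± 5.45 CPM and sham 120.9 ± 7.87 CPM. Stip1, which bridges Hsp70 and Hsp90, averaged 138.9 ± 6.13 CPM in estradiol and 127 ± 7.36 in anastrozole (fold −0.13 ± 0.05, then −0.12 ± 0.05 with the class). Hspa1a, an inducible Hsp70, averaged 25.3 ± 4.46 and 16.6 ± 6.44 CPM, and its fold went from −0.61 ± 0.22 to −0.33 ± 0.13 once the class was in the fit. Its 2 low Rn7sl1 libraries averaged 10.4 CPM and the other 3 anastrozole libraries 20.7 CPM. Of 31 tested chaperones, 1 was higher and 4 lower at an unadjusted p under 0.05 with groups alone, and 0 and 5 with the class, beside 3.82% and 2.69% lower over all genes. The median fold was −0.02 and −0.05. Hsp90ab1, the constitutive Hsp90, averaged 1378 ± 25 and 1330 ± 41.2 CPM (fold −0.05 ± 0.04 in both fits).

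In the endoplasmic reticulum, Hspa5, the chaperone BiP, measured 264.5, 320.6, 259.8, 291.6 and 277.9 CPM in estradiol and 206.7, 276.5, 228.7, 265.5 and 210.9 CPM in anastrozole. The groups overlapped, and the fold was −0.25 ± 0.11 with groups alone and −0.29 ± 0.11 with the class (adjusted p = 0.926, edgeR). Vehicle averaged 214.7 ± 20.8 CPM and sham 296.7 ± 45.3 CPM. Xbp1, a transcription factor of the unfolded protein response, averaged 39.9 ± 1.28 CPM in estradiol and 35.6 ± 1.64 in anastrozole (fold −0.17 ± 0.07 in both fits). Nucb2, the precursor of nesfatin, went the other way and did not overlap, at 18.1 ± 1.21 and 21.5 ± 1.28 CPM (fold 0.25 ± 0.08, then 0.21 ± 0.08). Of 31 tested members, 2 were higher and 4 lower at an unadjusted p under 0.05 with groups alone, and 1 and 3 with the class. The median fold was −0.01 and −0.04.

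Vgf, a secreted neuropeptide precursor, measured 132.7, 113.7, 125.1, 129.0 and 143.4 CPM in estradiol and 101.5, 108.9, 69.6, 71.3 and 113.6 CPM in anastrozole. The lowest estradiol value barely exceeded the highest anastrozole value, and anastrozole replicates 3 and 4 were far below the other 3. The fold was −0.47 ± 0.14 with groups alone (adjusted p = 0.519, edgeR) and −0.28 ± 0.08 with the class (adjusted p = 0.731). Among high Rn7sl1 libraries only it was −0.26 ± 0.08 (adjusted p = 0.999). Vehicle averaged 83.1 ± 17.8 CPM, with its 1 low Rn7sl1 library lowest at 57.3, and sham 116.5 ± 2.93 CPM. Of 16 tested genes of secretory granules, Vgf was the 1 with an unadjusted p under 0.05 in both fits. Galr2, a galanin receptor, averaged 1.97 ± 0.70 and 0.98 ± 0.35 CPM (fold −1.04 ± 0.37, then −0.78 ± 0.35), levels at which counting error is large. Of 25 immediate-early genes, which mark recent neuronal activity, 0 were higher and 2 lower (Fosb and Sik1) at an unadjusted p under 0.05 with groups alone, and 0 and 2 (Nr4a2 and Sik1) with the class. The median of this list was −0.18, the lowest of any list plotted, and −0.08 with the class. Fosb averaged 9.59 ± 0.87 and 7.11 ± 0.82 CPM without overlap (fold −0.44 ± 0.21, then −0.37 ± 0.22 with the class, where it was no longer among the 2), while Fos averaged 7.18 ± 1.91 and 5.90 ± 1.59 CPM and Arc 97.3 ± 16.4 and 76.4 ± 20.9 CPM, both with overlap.

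For part of the cholesterol synthesis pathway the anastrozole means were the higher ones, with no gene past the adjusted test. Msmo1, a sterol methyl oxidase late in the pathway, measured 60.1, 64.1, 63.1, 59.7 and 60.3 CPM in estradiol and 72.6, 64.7, 82.4, 83.7 and 68.1 CPM in anastrozole. No values overlapped, although anastrozole replicate 2 lay just above the estradiol range. The fold was 0.27 ± 0.07 with groups alone (adjusted p = 0.495, edgeR) and 0.21 ± 0.06 with the class (adjusted p = 0.745). Hmgcs1, which makes the precursor of mevalonate, measured 196.6, 200.4, 199.2, 198.6 and 205.0 CPM in estradiol and 220.9, 222.4, 268.8, 283.3 and 219.3 CPM in anastrozole. Its 2 highest libraries were again the low Rn7sl1 ones, at a mean of 276 CPM beside 221 CPM in the other 3, and its fold was 0.28 ± 0.08 with groups alone and 0.17 ± 0.06 with the class. Both genes were at similar levels in vehicle, 74.8 ± 2.96 CPM for Msmo1 and 233 ± 12.9 CPM for Hmgcs1. Cyp51, a sterol demethylase, had folds of 0.19 ± 0.06 and 0.15 ± 0.06, and Insig1, which retains the sterol sensor in the endoplasmic reticulum, 0.20 ± 0.08 and 0.19 ± 0.08. Of 24 tested members, 5 were higher and 0 lower at an unadjusted p under 0.05 with groups alone, and 4 and 0 with the class, beside 4.41% and 2.16% higher over all genes. The list's median was 0.03 and 0.06, with 14 positive and 10 negative folds with groups alone, and 17 and 7 with the class. Among high Rn7sl1 libraries only, the folds were 0.15 ± 0.06 for Msmo1 and 0.14 ± 0.04 for Hmgcs1. In the same fit they were 0.11 ± 0.06 for Cyp51 and 0.12 ± 0.09 for Insig1.

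**Figure D3:**
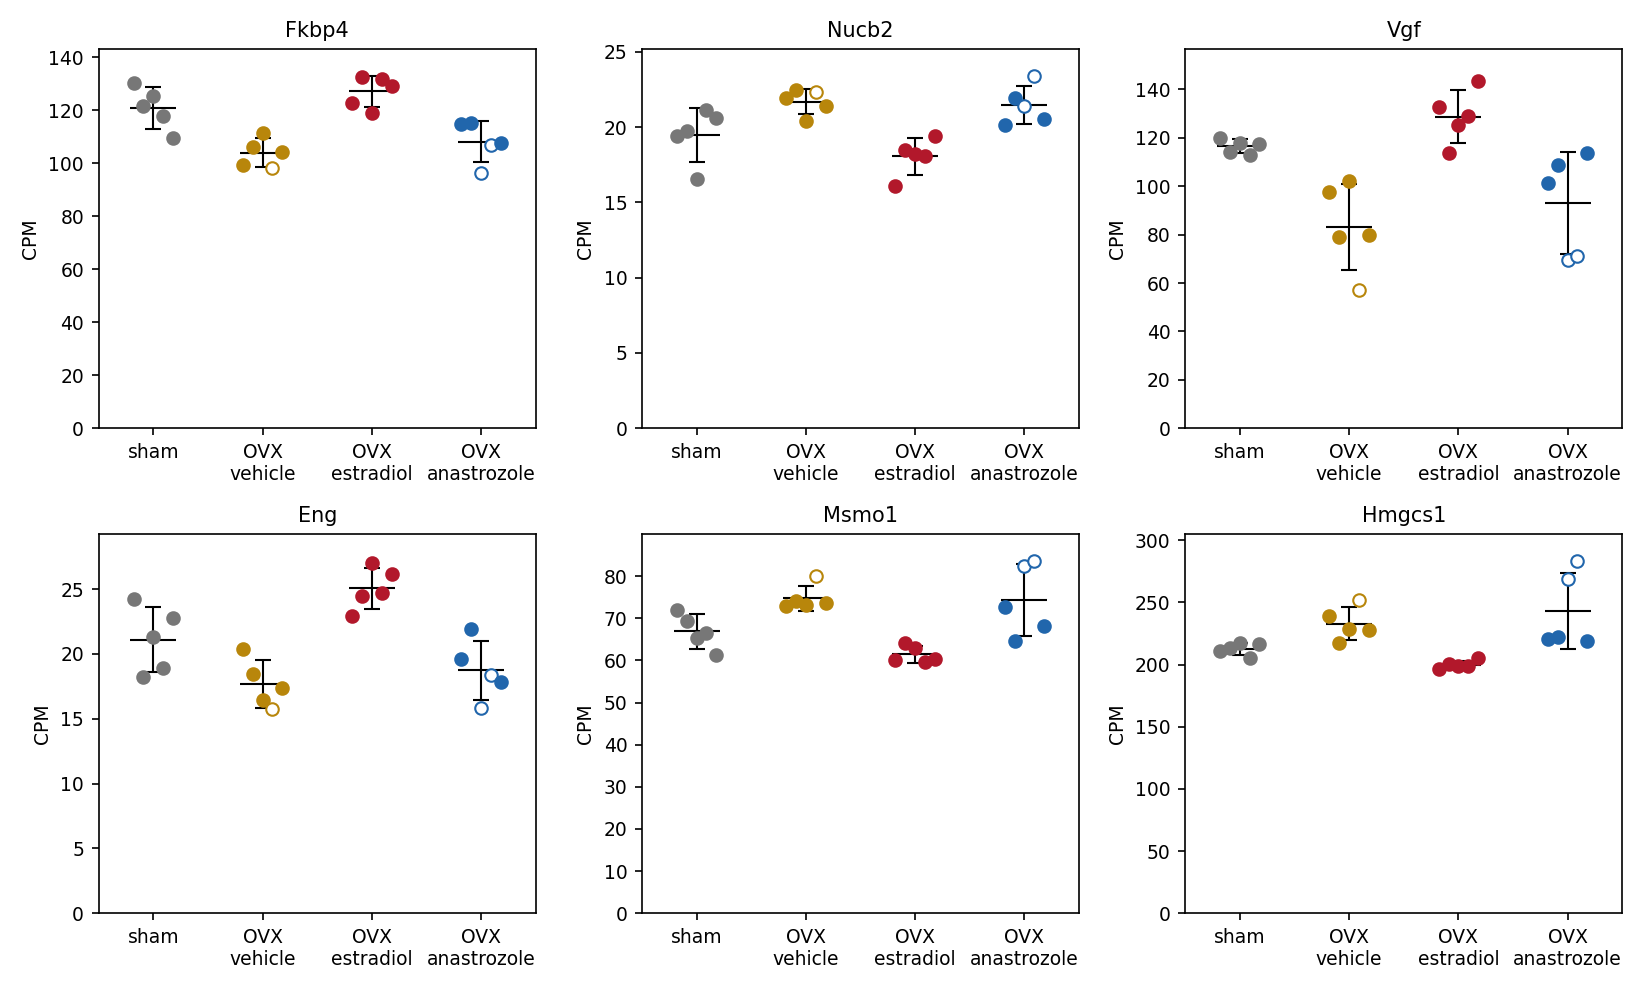
CPM of Fkbp4, Nucb2, Vgf, Eng, Msmo1 and Hmgcs1 in each library of 4 groups of 5, on axes that start at 0; horizontal bars with whiskers are the mean ± SD and open points are libraries low in Rn7sl1. In all 6 genes the 5 anastrozole points lie on 1 side of the 5 estradiol points, and for Fkbp4, Vgf, Msmo1 and Hmgcs1 the open anastrozole points lie farthest from estradiol.

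Over all genes, 83 had every anastrozole library above every estradiol library (0.576%) and 120 had every one below (0.833%). The symbol genes of smallest p in the fit on groups alone, none of which passed, were mostly of this kind. They were picked by p from these same libraries, so such separation comes with the choice and is no separate support. LOC108350502 measured 11.9 to 14.6 CPM in estradiol and 17.6 to 29.9 in anastrozole (fold 0.76 ± 0.16, adjusted p = 0.302, edgeR, then 0.54 ± 0.12 with the class). Zfp57, a zinc finger protein that keeps imprinted DNA methylated in mouse, averaged 10.5 ± 1.88 and 15.1 ± 1.23 CPM, with vehicle at 11.5 ± 2.06, and its fold hardly moved with the class, from 0.52 ± 0.12 to 0.51 ± 0.12. Klhl29 averaged 77.4 ± 4.59 and 61.4 ± 7.18 CPM (fold −0.33 ± 0.08, then −0.25 ± 0.06). Dennd2a averaged 56.6 ± 3.37 and 47.4 ± 3.26 CPM (fold −0.26 ± 0.06, then −0.23 ± 0.06). Dcaf13 averaged 16.03 ± 1.52 and 21.02 ± 2.16 CPM (fold 0.39 ± 0.10, then 0.28 ± 0.09). Nmur2, a neuromedin U receptor, measured 0.17, 4.44, 4.59, 2.41 and 2.63 CPM in estradiol and 0 to 0.31 in anastrozole, and the estradiol library at 0.17 overlapped. LOC100911371 was listed at 0 in 3 estradiol libraries and at 2.84 and 5.08 CPM in the other two, against 8.44 to 18.2 CPM in anastrozole. Reads of a predicted locus of this kind may be shared with a similar gene, so its level is uncertain.

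The fit with the class put other genes forward. Hnrnph1, a splicing factor, measured 102.1 to 117.4 CPM in estradiol and 99.7, 103.6, 132.2, 126.1 and 98.6 CPM in anastrozole, so its 2 highest libraries were those low in Rn7sl1, and 2 of the other 3 lay below the estradiol range, whose lowest value of 102.1 stood apart from the other 4 at 114.2 to 117.4. Its fold was −0.01 ± 0.09 with groups alone and −0.16 ± 0.04 with the class (adjusted p = 0.655, edgeR), and −0.17 ± 0.05 among high Rn7sl1 libraries only. Ankrd26 went from −0.17 ± 0.10 to −0.31 ± 0.08, and Samd5 from −0.22 ± 0.09 to −0.32 ± 0.08. Arxes2 was listed at 0 in all 5 estradiol libraries and at 4.66, 4.60, 0, 0.21 and 2.11 CPM in anastrozole, and no fold is given for it. In the other direction, Ptn, a heparin-binding growth factor, averaged 95 ± 5.03 and 122 ± 27 CPM, and its fold went from 0.36 ± 0.12 to 0.13 ± 0.06. Nr1d2, a repressor of the circadian clock, went from 0.38 ± 0.13 to 0.17 ± 0.09.

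**Figure D4:**
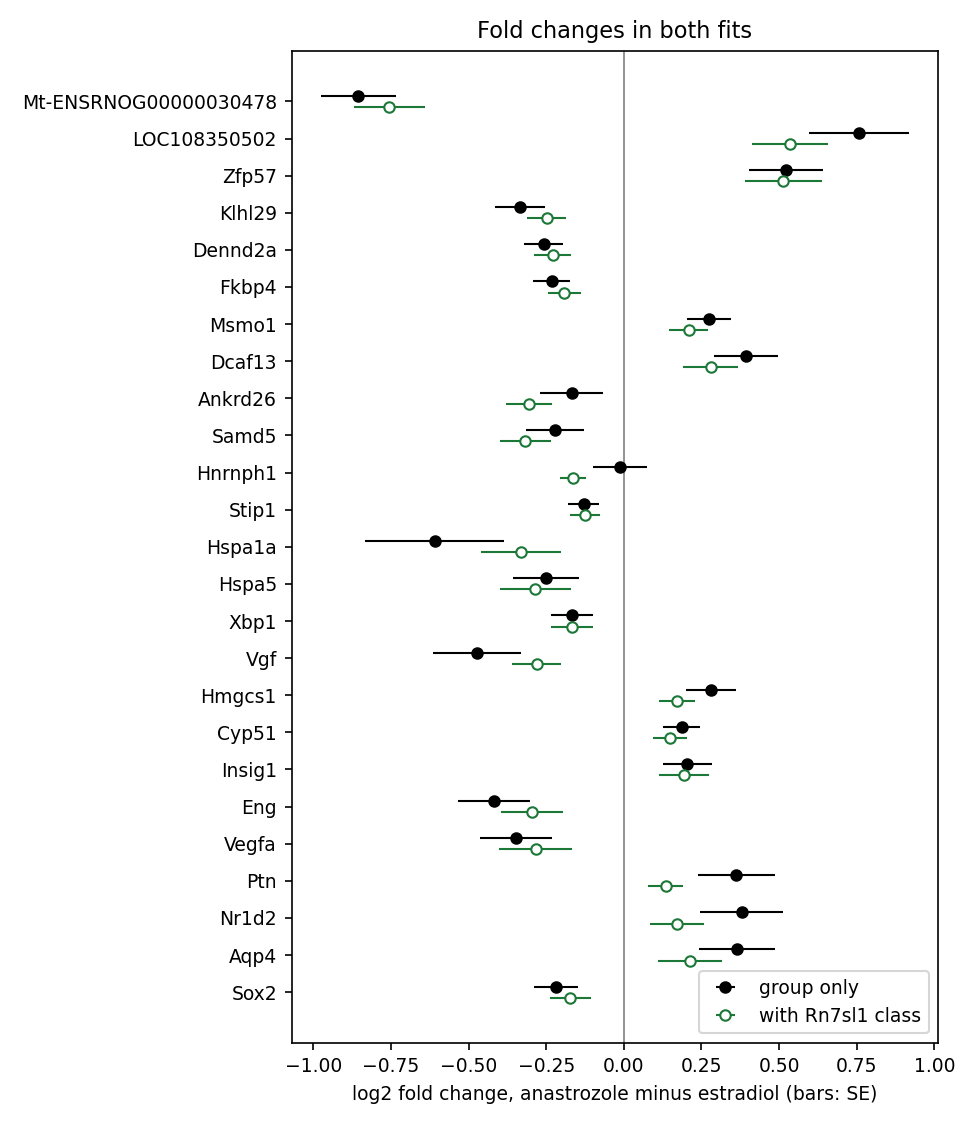
Log2 fold change, anastrozole minus estradiol, of 25 genes, with whiskers of 1 SE. Sox2, of the adult neurogenesis list, is the 1 gene not described in the text. Filled points are from groups alone and open points from the fit with the Rn7sl1 class. The class moves Hspa1a, Vgf, Ptn and Nr1d2 toward 0 and Hnrnph1 and Ankrd26 away from it, while Zfp57, Xbp1 and Stip1 hardly move.

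Cell type lists showed no member past the adjusted test in either fit. Eng, an endothelial coreceptor of the TGF-beta family, measured 22.92, 24.51, 27.03, 24.71 and 26.14 CPM in estradiol and 19.6, 21.9, 15.9, 18.4 and 17.9 CPM in anastrozole without overlap. Its fold was −0.42 ± 0.12 with groups alone and −0.30 ± 0.10 with the class (adjusted p = 0.813, edgeR), and vehicle averaged 17.7 ± 1.82 CPM. Of the 20 tested endothelial and mural genes, 1 was higher (Tagln) and 2 lower (Eng and Kcnj8) at an unadjusted p under 0.05 with groups alone, with 14 negative folds, and 1 higher (Tagln) and 1 lower (Eng) with the class, with 10 negative folds. They summed to 533.9 to 582.1 CPM in estradiol and 465.4 to 578.9 in anastrozole, and Vegfa, the endothelial growth factor, had folds of −0.35 ± 0.12 and −0.28 ± 0.12. Among libraries with Ttr under 100 CPM only, the fold of Vegfa with groups alone was −0.08 ± 0.13. The part of cell content in these values was not tested. Aqp4, the water channel of astrocytes, averaged 349.5 ± 20.8 and 449.8 ± 90.2 CPM, with 545.5 CPM in the low Rn7sl1 libraries and 386.1 in the other 3, while the summed astrocyte genes spanned 7239 to 8029 and 7751 to 8294 CPM. Enpp6, a marker of newly forming oligodendrocytes, averaged 2.59 ± 0.31 and 4.99 ± 1.26 CPM without overlap (fold 0.94 ± 0.34 in the first fit and 0.94 ± 0.35 in the second), with vehicle at 5.82 ± 1.5. Of 14 tested genes of oligodendrocyte precursors and newly forming cells, Enpp6 was the 1 with an unadjusted p under 0.05 with groups alone, 7 folds were positive and 7 negative, and with the class 2 were higher (Enpp6 and Gpr17) and 0 lower. Their summed level was 672.9 to 716.1 CPM in estradiol (median 697.8) and 651.7 to 707.9 in anastrozole (median 672.9). Of 21 tested myelin genes, 1 was higher and 0 lower with groups alone, and 0 with the class. Of 20 microglial genes, 0 were higher and 2 lower, and 0 with the class. The 19 choroid plexus genes all had a positive fold, with a median of 1.30 and 0.96, but none had an unadjusted p under 0.05, and Ttr was high in 3 anastrozole and 1 estradiol library.

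None of the 39 gene lists held a member past the adjusted test. Of 72 tested ribosomal protein genes, 7 were higher and 0 lower with groups alone, with a median of −0.01 and 35 positive folds. With the class 3 were higher and 0 lower, and the median changed sign to 0.03, with 52 positive folds. Rpl29 was the member without overlap, at 104.6 ± 4.53 and 120.5 ± 6.91 CPM, though ribosomal protein genes have many near copies and their counts are uncertain. Of 32 tested antioxidant genes, 4 were higher (Gstp1, Gsto1, Gclc and Pon2) and 0 lower with groups alone, and 2 and 0 with the class. Among high Rn7sl1 libraries only, the folds of Gstp1 and Pon2 were 0.12 ± 0.09 and 0.13 ± 0.08. Among libraries with Ttr under 100 CPM they were 0.01 ± 0.11 and 0.43 ± 0.13 with groups alone. Of 31 tested genes of pyruvate dehydrogenase and the TCA cycle, 3 were higher and 1 lower with groups alone, and 2 and 0 with the class. Pdhb and Sdhc did not overlap between groups, which held for 0.576% of all genes in this direction. The fold of Pdhb was 0.20 ± 0.07 with groups alone and 0.11 ± 0.05 with the class, and that of Sdhc 0.21 ± 0.07 and 0.16 ± 0.06. Lists for glutamate receptors, GABA-A receptor subunits, the Wnt pathway and thalamus or habenula had 0 members with an unadjusted p under 0.05 in both fits.

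**Figure D5:**
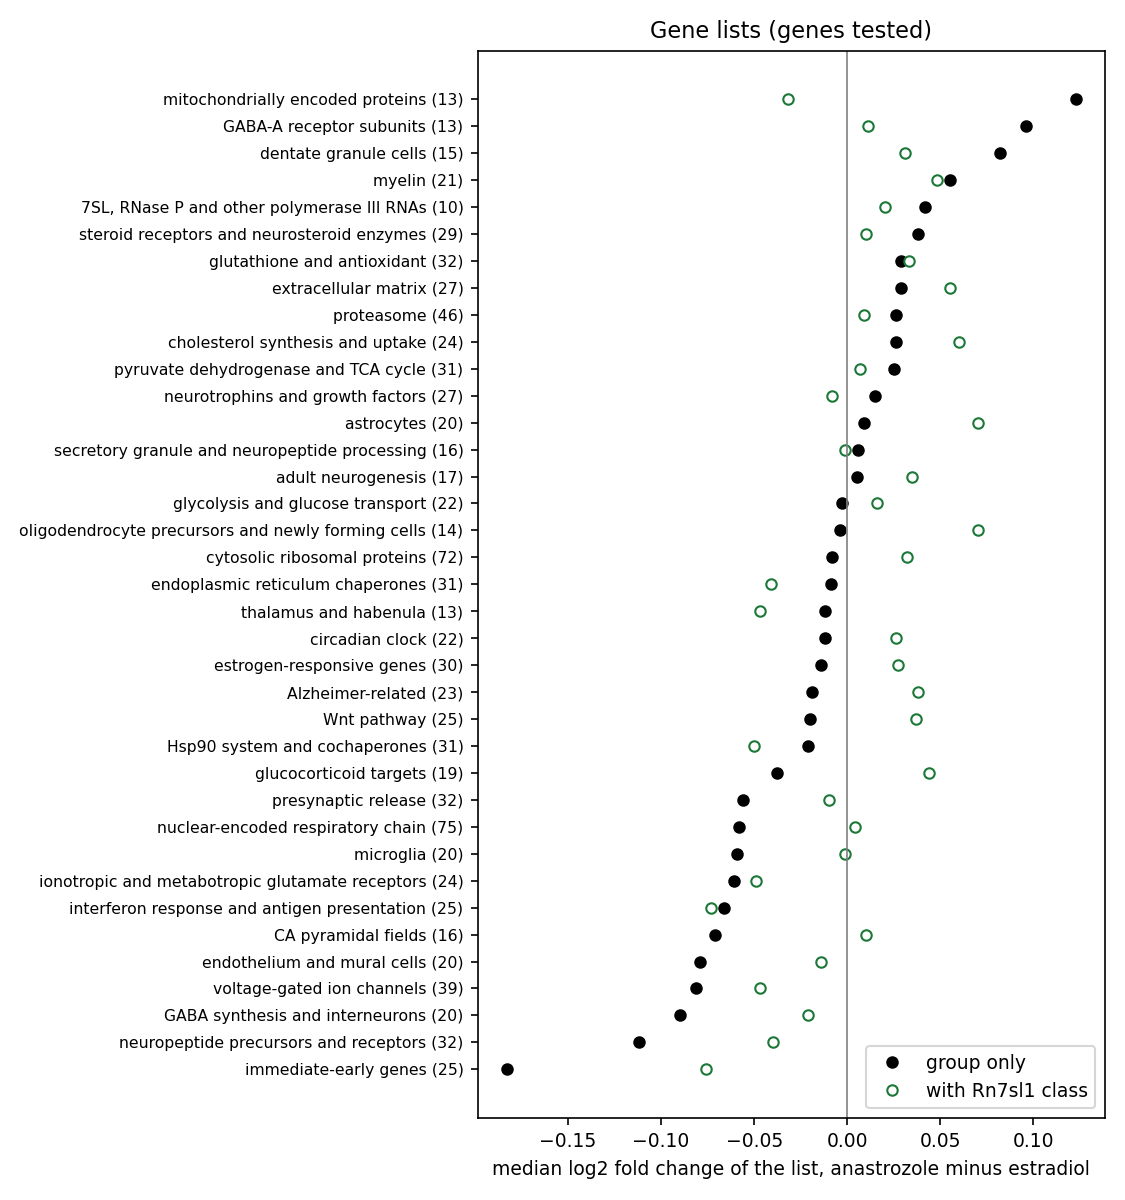
Median log2 fold change, anastrozole minus estradiol, of 37 gene lists with at least 10 tested genes (number tested in parentheses), from groups alone (filled) and with the Rn7sl1 class (open); the choroid plexus list, at 1.30 and 0.96, is not drawn. Medians run from −0.18 to 0.12 with groups alone and from −0.08 to 0.07 with the class.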

How the data were processed

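Bulk RNA from rat hippocampus was sequenced in 35 libraries, in 7 groups of 5. Per the labels' protocols, the libraries were stranded and poly(A)-selected, the RNA quality score had to exceed 7, and reads were 100 bp from both ends. Per the submitters' processing notes, Salmon and DESeq2 were used; versions, annotation and genome build are not given in the sources used here. The deposited expected counts per gene are whole numbers with no depth scaling. The authors' other table is a normalized signal, in which counts are divided by gene-specific and library-specific factors; it served as an alternative scaling.

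Counts were tested in edgeR 4.0.16 (TMM, filterByExpr, quasi-likelihood with the robust option), over all 35 libraries together, with p adjusted by Benjamini-Hochberg over 14411 of 15059 genes at 0.05, with groups alone and with the Rn7sl1 class (cut 4.15% of counts). SE is the fold divided by the root of its F statistic, and CPM uses TMM-scaled totals. The scripts were tested on simulated data. DESeq2 1.42.0 was one alternative, besides other scalings, filters, sets of libraries and covariates. The labels do not tie each library to 1 animal, so p-values measure the spread between samples. That spread is estimated for each gene over all 35 libraries in 7 groups, not over the 10 compared. Pairs of replicates differed by 2.46 to 6.68 times counting error in estradiol and 4.50 to 33.9 times in anastrozole, in chi-squared per degree of freedom. No library was thus counted as a copy, and the shared spread takes no account of this difference between the groups.

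The comparison and all gene lists were chosen with earlier results of these data known. Named genes were the 10 of smallest p per fit, up to 2 members of each list, and fixed steroid genes; genes outside this rule, chosen after their values were seen, are Stip1, Hsp90ab1, Cyp51, Insig1, Fos, Arc, Slc17a7, Prox1, LOC100911186, Pigg, UNKNOWN_ENSRNOG00000060559 and the other mitochondrial entry, and genes only counted in a list. Some genes under the rule are left out here. Of 1132 entries listed by identifier, 953 were tested. Promoters are from RefSeq, build GRCr8, matched by symbol.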

Additional observations from a re-analysis of the deposited data

Results flagged for a closer look

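Of 108 sets of 5 libraries checked, 10 held a value far from the other 4 by Dixon's criterion (gap to the nearest value over the range above 0.71), where chance gives about 1 set in 20. Estradiol replicate 2 was high in Ttr, at 2095 CPM beside at most 2.33 CPM, in Nr1d2, at 76.7 CPM beside 67.4 to 68.5, and in Dcaf13, at 18.6 CPM beside 14.9 to 15.8. Estradiol replicate 5 was low in Mt-ENSRNOG00000030478, at 960.2 CPM beside 1067 to 1106, in Hnrnph1, at 102.1 CPM beside 114.2 to 117.4, and in Xbp1, at 37.7 CPM beside 40.3 to 40.9. In anastrozole, Dennd2a was high in replicate 5, at 53.1 CPM beside 45.0 to 46.8, and Tnc, an extracellular matrix protein, high in replicate 1, at 25.1 CPM beside 20.3 to 21.6. Anastrozole replicate 2 was high in Stip1, at 140.0 CPM beside 122.2 to 125.1, and low in Ciart, a circadian repressor, at 4.44 CPM beside 5.92 to 6.36.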

How the results depend on the processing

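Each fit was repeated under 21 other settings. The 20 fits that leave out 1 anastrozole or estradiol library each called 1 gene, the mitochondrial entry. The count was 0 on the 15 anastrozole, estradiol and vehicle libraries in both designs, and 0 with groups alone under the authors' per-gene factors and among high Rn7sl1 libraries; the cause was not tested. On the 10 anastrozole and estradiol libraries alone the count was 1 in both designs (adjusted p of the mitochondrial entry 0.000437, and 3.4e-07 with the class, edgeR). In these 10 libraries the low class held anastrozole replicates 3 and 4 only. The fit with the class therefore set the 3 high Rn7sl1 anastrozole libraries against estradiol. DESeq2 called 6 genes with groups alone (Mt-ENSRNOG00000030478, LOC100911186, LOC100911371, LOC108350502, Nmur2 and Pigg) and 3 with the class (Mt-ENSRNOG00000030478, LOC100911186 and Pigg). LOC100911186 and Pigg were listed at 0 in all 5 anastrozole libraries and in 2 and 3 of the 5 estradiol libraries. The alternative with libraries under 100 CPM of Ttr, chosen after seeing the data, left 2 anastrozole and 4 estradiol libraries and called 1 gene in each design, UNKNOWN_ENSRNOG00000060559 (62.97 ± 7.47 CPM in anastrozole, 51.9 ± 6.09 in estradiol over all 5), and not the mitochondrial entry. Of 51 genes followed, 49 kept the sign of their fold in all settings with groups alone and 51 with the class. With groups alone, the fold of Ankrd26 reversed to 0.0050 under the Ttr limit and that of Hnrnph1 to 0.0598, and that of Hnrnph1 ran from −0.077 to 0.033 when single libraries were left out. Genes with an unadjusted p under 0.05 numbered 1187 with groups alone, 685 without anastrozole replicate 3 and 527 without replicate 4, but 1881 without replicate 1, 1688 without replicate 2 and 1586 without replicate 5. No paired analysis was possible because the titles number all 35 libraries in 1 run and share no number between groups. Totals as low as 5.58 M counts (M for mega) limit genes under a few CPM, the estrogen receptors and aromatase among them.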
